A study of Mus musculus with 14 samples.

Results

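The nuclear genes of the respiratory chain and ATP synthase were followed across 14 mouse thymic lymphomas of 3 Hif1a genotypes. A gene was included where its symbol begins with Nduf, Uqcr, Atp5 or Cox4 to Cox8, or is Sdha, Sdhb, Sdhc, Sdhd or Cycs, and where at least 1 probe set names that gene alone. This gave 84 of the 10254 genes measured. Where a gene had several such probe sets, which was so for 46 of the 84, the one with the highest mean over the tumours stood for it. By role they are 6 core and 27 accessory subunits of complex I, 5 complex I assembly factors, 4 subunits of complex II, 8 of complex III, cytochrome c, 16 subunits of complex IV and 17 of ATP synthase. A further 9 genes with such names are named only by probe sets shared between genes and were not included. They are Ndufa11, Ndufa11b, Ndufab1-ps, Ndufb4, Ndufb4b, Ndufb4c, Ndufs5-ps, Ndufs6 and Ndufs6b.

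All mice were homozygous for the p53 R270H allele on a mixed C57BL/6-129/SvEvTac background, the tumours with normal Hif1a included. Of the tumours, 5 were Hif1a+/+, 5 were Hif1a+/- (1 allele lost) and 4 were Hif1aKI/+ (1 knock-in allele, whose content the labels do not give). Each array held total RNA from 1 tumour, taken when the mouse showed signs of respiratory distress, and the labels give no age, sex or batch. The study asked which expression differences could account for altered tumour onset and incidence between the genotypes.

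The respiratory chain passes electrons from NADH (complex I) and succinate (complex II) through complex III and cytochrome c to oxygen at complex IV, and ATP synthase uses the proton gradient this builds. The genes described here are all encoded in the nucleus. The subunits encoded in mitochondrial DNA are outside the rule. HIF-1, whose oxygen-regulated subunit Hif1a encodes, is known to lower respiration in hypoxic cells, in part by exchanging the complex IV subunit Cox4i1 for Cox4i2.

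The values are log2 probe set levels, so a difference of 1 is a doubling of the signal. Array medians lay between 7.91 and 8.03, and the arrays correlated with one another at 0.942 to 0.976. Levels below 4.83, the minimum between the low and the high mode of the gene means, are near background; 30% of all genes have a mean there. Of 15 T cell markers measured, 14 had means above this boundary, among them Cd3d at 13.95 and Cd8a at 13.82, while Cd7 lay below it at 4.60. The mean T cell marker level spanned 11.05 to 11.62 in Hif1a+/+, 11.19 to 11.68 in Hif1a+/- and 11.34 to 11.59 in Hif1aKI/+ tumours. Stromal markers were also present. The fibroblast and macrophage lists averaged lower in every Hif1a+/- than in every Hif1a+/+ tumour. The thymic epithelial, pericyte and endothelial lists overlapped between genotypes, and no test was run on the lists. The fibroblast list (11 genes, 1 of them, Thy1, also a T cell gene; Lum below the boundary) averaged 9.61 to 10.71, 8.56 to 9.59 and 9.18 to 9.89 in the same order. The macrophage list (12 genes, Itgam and Cd163 below the boundary) averaged 8.56 to 9.91, 7.57 to 8.53 and 7.72 to 8.93. The thymic epithelial list (11 genes, 4 below the boundary) averaged 3.62 to 7.02, 5.46 to 7.36 and 6.34 to 7.57. The pericyte and smooth muscle list (10 genes, 4 below the boundary) averaged 6.07 to 7.27, 5.98 to 7.67 and 5.91 to 7.42. The endothelial list (11 genes, 7 below the boundary) averaged 3.87 to 5.00, 3.47 to 4.84 and 3.70 to 4.47. In bulk tissue fewer cells of a type and less RNA per cell cannot be told apart, and the part of these cells in the differences below was not tested. Hif1a itself read 12.60, 13.04, 12.45, 12.44 and 12.85 in Hif1a+/+ tumours 1 to 5, with a mean of 12.68 ± 0.26 (SD, n = 5). Hif1a+/- tumours 1 to 5 read 12.54, 12.24, 12.47, 12.82 and 12.68, with a mean of 12.55 ± 0.22 (SD, n = 5). Hif1aKI/+ tumours 1, 3, 4 and 5 read 12.25, 12.14, 11.94 and 11.75, with a mean of 12.02 ± 0.22 (SD, n = 4). Whether the probes lie in a deleted or replaced part of the gene is not given, so these values do not check the labels. All 4 Hif1aKI/+ tumours lay below all 5 Hif1a+/+ tumours for Hif1a (two-sided exact permutation p = 0.00794, 0.0715 after Benjamini-Hochberg adjustment over 9 such tests; limma adjusted p = 0.984).

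Most respiratory chain genes were well above background, and the median difference between genotypes was close to 0. Of the 84, 80 had a mean above the boundary; Cox8b, Ndufb1, Cox4i2 and Cox7a1 did not. The mean level of the 84 genes spanned 12.22 to 12.49 in Hif1a+/+, 12.26 to 12.61 in Hif1a+/- and 12.12 to 12.48 in Hif1aKI/+ tumours, so the ranges overlapped. The median difference was 0.0109 in Hif1a+/- against Hif1a+/+, -0.00493 in Hif1aKI/+ against Hif1a+/+ and 0.0396 in Hif1a+/- against Hif1aKI/+. Over all 10254 genes these medians were -0.00379, -0.00238 and -0.00116.

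No gene of the set passed limma's test at an adjusted p of 0.05 in any of the 3 comparisons. Hif1a+/- against Hif1a+/+ called 2 of all genes (0.0195%), and both other comparisons called 0 of all genes (0%). At an unadjusted p under 0.05, 14 of the 84 (16.7%) differed between Hif1a+/- and Hif1a+/+, 11 higher and 3 lower, beside 7.94% of all genes (4.3% higher, 3.64% lower). Restricted to genes above the boundary and refitted, that count was 5 of 80 (6.25%) beside 8.63% of all such genes. With trended robust moderation of all genes it was 15 of 84 (17.9%) beside 8%. The excess over background thus differed between fits, and the reason was not tested. For Hif1aKI/+ against Hif1a+/+ the count was 3 (3.57%), 2 higher and 1 lower, beside 4.35% of all genes (2.72% higher, 1.63% lower). For Hif1a+/- against Hif1aKI/+ it was 4 (4.76%), all higher, beside 3.06% of all genes (1.41% higher, 1.65% lower). The F test over the 3 genotypes called 0 members with limma; 10 had an unadjusted p under 0.05, against 5.43% of all genes. The Hif1a+/+ tumours enter the first and the second comparison, which are therefore not independent of each other.

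By direction alone, 45 of the 84 lay higher and 39 lower in Hif1a+/- than in Hif1a+/+ tumours, where 46.2% of all genes lay higher and 53.8% lower. Centring each array on its own median left 45.2% of the 84 higher there, which turns the majority, and quantile normalization gave 60.7%. In Hif1aKI/+ against Hif1a+/+, 41 lay higher and 43 lower (48.8% higher; 47.7% of all genes higher and 52.3% lower), and centring each array on its own median instead left 36.9% higher. In Hif1a+/- against Hif1aKI/+, 51 lay higher and 33 lower (60.7% higher; 46.9% of all genes higher and 53.1% lower).

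**Figure D1:**
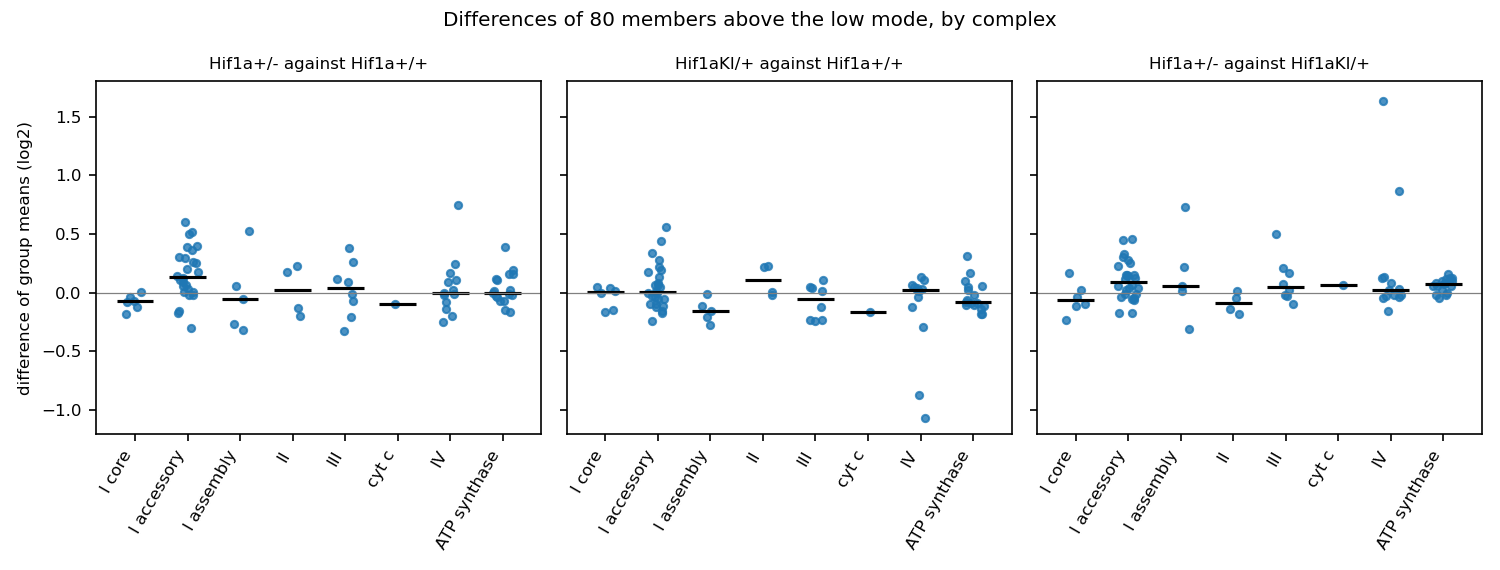
Difference of group means (log2) for the 80 genes above the low-mode boundary, 1 point per gene, by complex, in each of the 3 comparisons; black bars are medians of the points shown. In the left panel most complex I accessory points lie above 0 and most core points below it, and the widest complex IV point is Cox6a2; in the other panels the widest are Cox6a2 and Cox6b2.

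Within complex I the accessory and core subunits lay on different sides in Hif1a+/- against Hif1a+/+, a division that was not tested. Of its 27 accessory subunits, which surround the catalytic core and stabilise it, 22 lay higher in Hif1a+/- than in Hif1a+/+ tumours, with a median difference of 0.128 and 8 at an unadjusted p under 0.05 (Ndufa2, Ndufa6, Ndufa13, Ndufb7, Ndufb9, Ndufb10, Ndufs4 and Ndufs5). Over all genes 46.2% lay higher and 4.3% lay higher at that p, and the refit above the boundary left 5 of all 80 members at that p in either direction. Of the 6 core subunits, most of which carry the flavin or iron-sulphur clusters, 1 (Ndufs7) lay higher, with a median of -0.0726 and 0 at an unadjusted p under 0.05. In Hif1aKI/+ against Hif1a+/+, 15 accessory subunits lay higher (median 0.018) and 4 core subunits did (median 0.0102). In Hif1a+/- against Hif1aKI/+, the numbers were 18 (median 0.0681) and 2 (median -0.0657). None of these subunits passed limma's adjusted threshold; the lowest adjusted p among the accessory subunits was 0.474.

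The higher accessory levels were not shared by every Hif1a+/- tumour. Taking each gene's deviation from its mean over the 14 tumours, the accessory subunits had a median of 0.353 in Hif1a+/- tumour 2, 0.15 in tumour 4 and 0.0614 in tumour 3, but -0.0968 in tumour 5 and -0.138 in tumour 1. In the Hif1a+/+ tumours the medians were -0.000271, -0.235, 0.0275, -0.246 and 0.152 in tumours 1 to 5. In the Hif1aKI/+ tumours they were -0.04, 0.0588, -0.234 and 0.108 in tumours 1, 3, 4 and 5. Thus 2 Hif1a+/- tumours lay below the overall mean, Hif1a+/+ tumour 5 lay with the high ones, and the 3 genotypes overlapped. Without Hif1a+/- tumour 2 the count of all respiratory chain genes at an unadjusted p under 0.05 was 8 in place of 14, and without Hif1a+/+ tumour 2 it was 9.

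**Figure D2:**
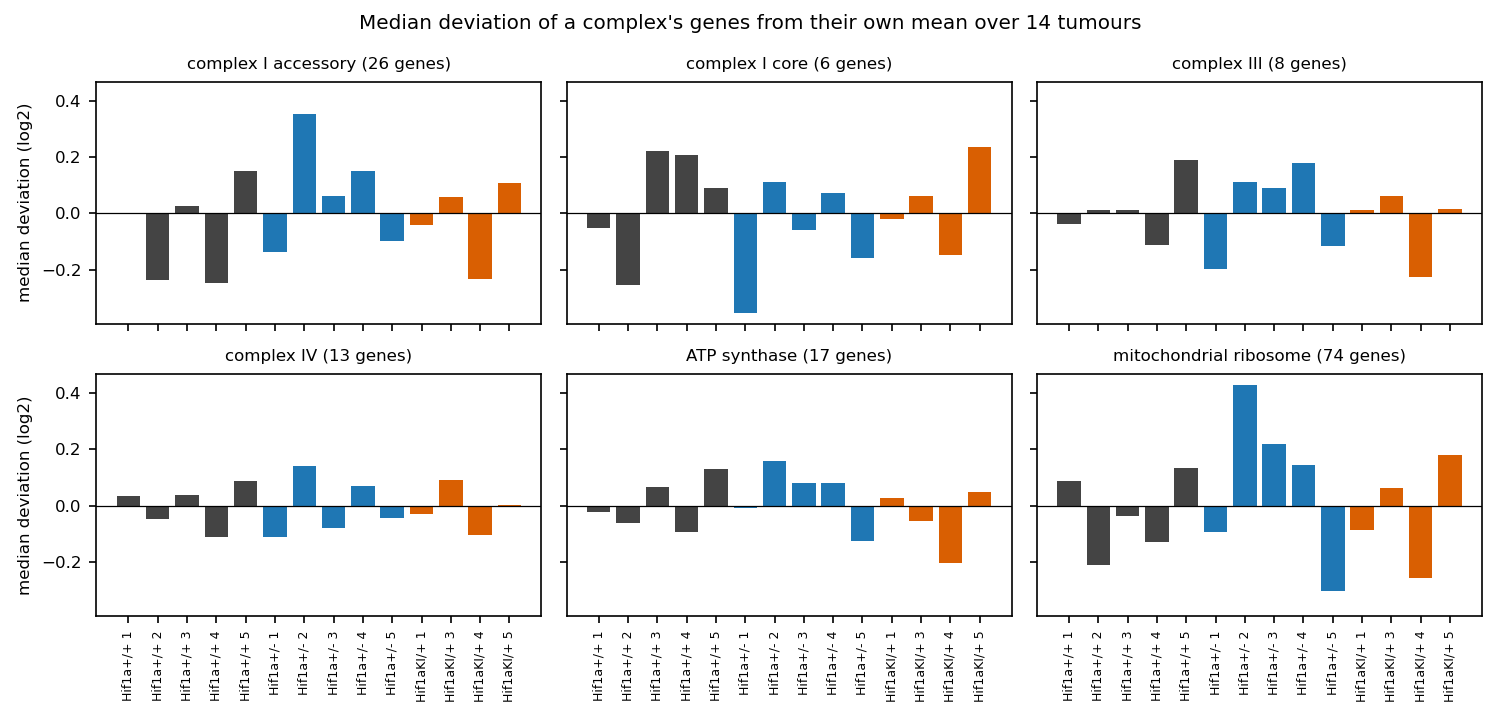
Median over genes of the deviation (log2) from each gene's own mean over 14 tumours, 1 bar per tumour and 1 panel per gene group, for genes above the low-mode boundary. Hif1a+/- tumour 2 is highest for the accessory subunits (0.353) and for the mitochondrial ribosome (0.429), and the bars of the genotypes overlap in every panel.

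Among the accessory subunits, Ndufa6 read 12.28, 12.49, 12.08, 12.18 and 12.82 in Hif1a+/+ tumours 1 to 5 and 12.64, 13.20, 13.13, 12.74 and 12.66 in Hif1a+/- tumours 1 to 5. It read 12.51, 12.61, 12.41 and 12.74 in the Hif1aKI/+ tumours. Hif1a+/+ tumour 5 lay inside the Hif1a+/- range, and the other 4 Hif1a+/+ tumours lay below it. The difference between Hif1a+/- and Hif1a+/+ was 0.51 (SE 0.156), a 1.42-fold higher level, with a limma adjusted p of 0.484.

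Ndufa13, also known as GRIM-19 and needed for complex I assembly, read 13.95, 13.61, 14.05, 13.70 and 13.88 in Hif1a+/+ and 14.08, 14.32, 13.91, 14.16 and 14.24 in Hif1a+/- tumours. In Hif1aKI/+ tumours it read 13.996, 14.06, 13.98 and 14.04. Only Hif1a+/- tumour 3 fell within the Hif1a+/+ range, and all 4 Hif1aKI/+ tumours lay between 13.975 and 14.06.

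Ndufs4, whose loss in mice and people causes a Leigh-like encephalopathy, read 11.65, 11.62, 11.99, 11.70 and 11.97 in Hif1a+/+ tumours. In Hif1a+/- tumours it read 11.65, 12.58, 12.62, 12.57 and 12.12, and in Hif1aKI/+ tumours 11.68, 12.07, 11.73 and 11.93. Hif1a+/- tumours 2, 3 and 4 stood clear of every other tumour, whereas tumour 1 was level with the lowest. The fitted difference of 0.52 (SE 0.179) between Hif1a+/- and Hif1a+/+ came from the brightest of 3 probe sets; the others gave 0.136 and 0.145.

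Ndufs5, a small intermembrane-space subunit, showed the widest mean gap of the accessory subunits. It read 11.18, 10.51, 10.001, 10.78 and 11.06 in Hif1a+/+, 11.35, 11.62, 10.90, 10.90 and 11.76 in Hif1a+/-, and 11.24, 11.20, 11.36 and 11.26 in Hif1aKI/+ tumours. All 4 Hif1aKI/+ tumours lay above all 5 Hif1a+/+ tumours, the 1 gene of the set without overlap in this direction; 0.878% of all genes were so placed. The difference was 0.56 (SE 0.245; limma adjusted p = 0.984). A pseudogene, Ndufs5-ps, is named by a shared probe set, so part of this signal could be split between copies.

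Ndufb7 had means of 13.87 ± 0.16, 14.13 ± 0.14 and 13.87 ± 0.17 (SD, n = 5, 5 and 4) in Hif1a+/+, Hif1a+/- and Hif1aKI/+ tumours. A dimmer probe set of the gene gave a difference of 0.48 against the 0.253 of the one used, in the same direction. Ndufa2 had the smallest unadjusted p of the set between the altered genotypes, with means of 13.42 ± 0.17 and 12.97 ± 0.27 (SD, n = 5 and 4), Hif1a+/- being the higher, a difference of 0.45 (SE 0.142; limma adjusted p = 1). Hif1aKI/+ tumour 5, at 13.29, lay within the Hif1a+/- range of 13.19 to 13.60, and the other 3 Hif1aKI/+ tumours lay below it.

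Ndufb11 was the 1 gene whose Hif1a+/- and Hif1aKI/+ tumours did not overlap with Hif1a+/- higher, where 0.234% of all genes were so placed. The Hif1a+/- tumours read 14.43, 14.39, 14.40, 14.39 and 14.39, and the Hif1aKI/+ tumours 14.25, 14.32, 14.10 and 14.33. The gap was narrow, with a difference of 0.148 (SE 0.0582; limma adjusted p = 1). The Hif1a+/+ tumours, from 14.22 to 14.42, spanned both.

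**Figure D3:**
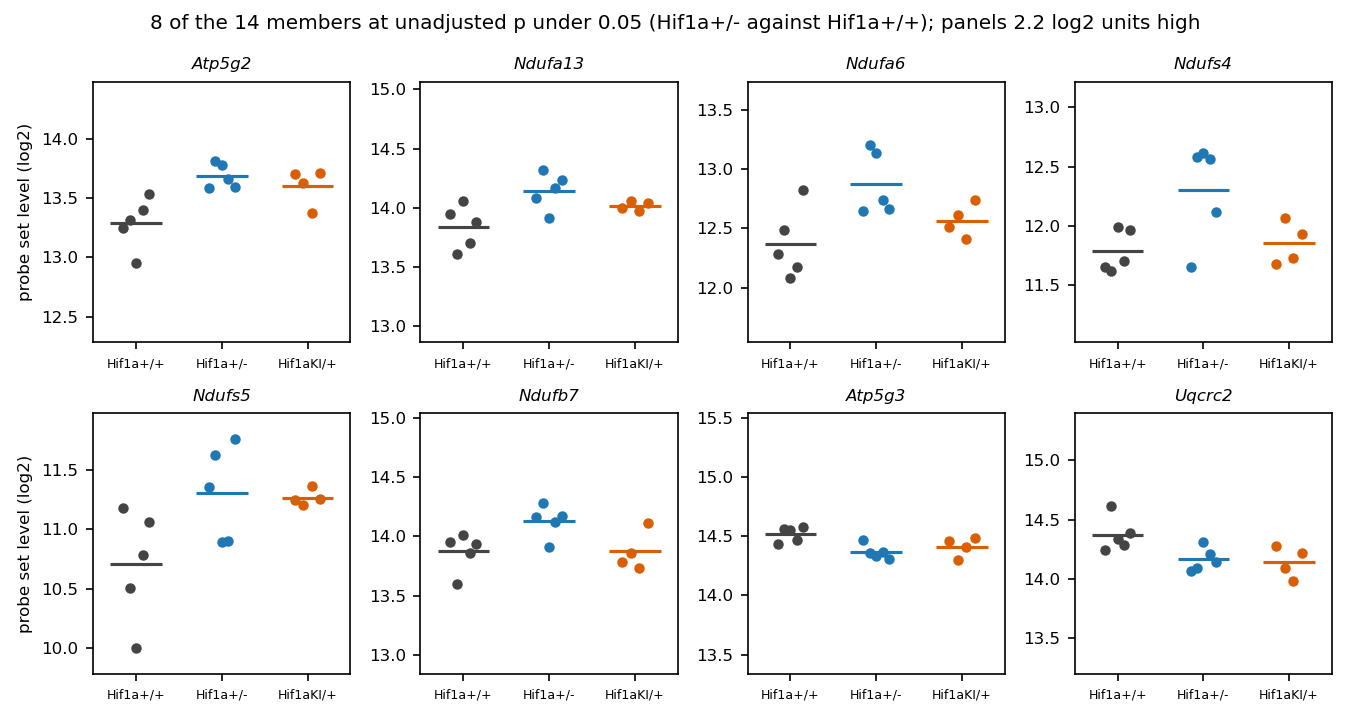
Probe set level (log2) of 8 genes in each tumour by Hif1a genotype, points for tumours and bars for group means, on axes 2.2 log2 units high that do not start at 0. Atp5g2 is the only one of the 8 in which every Hif1a+/- tumour lies above every Hif1a+/+ tumour, and Ndufs5 the only one in which every Hif1aKI/+ tumour does.

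Against this trend, Ndufab1, the mitochondrial acyl carrier protein, differed by -0.3 (SE 0.183) in Hif1a+/- against Hif1a+/+, and Ndufc2 by -0.169 in Hif1a+/- and -0.124 in Hif1aKI/+. Ndufa7 stood at 12.63 ± 0.32, 12.89 ± 0.52 and 13.07 ± 0.13 (SD, n = 5, 5 and 4) in Hif1a+/+, Hif1a+/- and Hif1aKI/+ tumours. All 5 of its probe sets gave higher means in both altered genotypes. Ndufb1 was near background in every tumour, at 2.12 to 2.53.

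The 5 assembly factors named Ndufaf showed no shared direction in Hif1a+/- against Hif1a+/+ (2 higher, 3 lower) and all 5 lay lower in Hif1aKI/+ against Hif1a+/+, with a median of -0.159 and 0 at an unadjusted p under 0.05. Among them Ndufaf4 differed by -0.276. Ndufaf3 varied within genotypes, from 7.72 in Hif1a+/+ tumour 1 to 10.34 in Hif1a+/+ tumour 5, and Ndufaf7 from 8.42 in Hif1a+/- tumour 3 to 10.50 in Hif1a+/- tumour 4. For both, the widest gaps between tumours lay inside a genotype. Of 31 other assembly factors of the chain measured, 21 lay higher in Hif1a+/- and 19 in Hif1aKI/+ than in Hif1a+/+ tumours, and 16 higher in Hif1a+/- than in Hif1aKI/+. None passed limma's adjusted threshold. At an unadjusted p under 0.05 there were 3 (9.68%), 0 and 0, beside 7.94%, 4.35% and 3.06% of all genes. The 2 of smallest p in each comparison, whether under 0.05 or not, are named here. Atpaf2, an F1 assembly factor, differed by 0.475 in Hif1a+/- and 0.38 in Hif1aKI/+ against Hif1a+/+. Lrpprc, which stabilises mitochondrial mRNAs, differed by -0.702 in Hif1a+/- against Hif1a+/+ and -0.621 against Hif1aKI/+. Sco2, a copper chaperone of complex IV, differed by 0.486 in Hif1aKI/+ against Hif1a+/+, and Pet100 by 0.495 in Hif1a+/- against Hif1aKI/+. Of these differences, only those of Atpaf2 and Lrpprc in Hif1a+/- against Hif1a+/+ had an unadjusted p under 0.05.

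Complex II, which also serves the tricarboxylic acid (TCA) cycle, had 4 genes measured. Sdha, the flavoprotein, averaged 12.36 ± 0.33, 12.23 ± 0.21 and 12.36 ± 0.15 (SD, n = 5, 5 and 4) in Hif1a+/+, Hif1a+/- and Hif1aKI/+ tumours, and Sdhb, the iron-sulphur subunit, 12.88 ± 0.26, 13.11 ± 0.32 and 13.10 ± 0.19. The membrane anchor Sdhc averaged 10.65 ± 0.40, 10.83 ± 0.31 and 10.88 ± 0.45. These gaps were within the spread between tumours. Sdhd, the second anchor, read 12.20, 12.11, 12.12, 12.12 and 12.39 in Hif1a+/+ and 11.78, 12.11, 12.09, 12.12 and 11.83 in Hif1a+/- tumours. Hif1a+/- tumours 1 and 5 lay lowest, tumours 2 and 4 lay within the Hif1a+/+ range and tumour 3 just below it, a difference of -0.199 (SE 0.0808; limma adjusted p = 0.581). In Hif1aKI/+ tumours Sdhd read 12.10, 12.21, 12.16 and 12.21, inside the Hif1a+/+ range apart from the lowest.

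Complex III, the cytochrome bc1 complex, had 4 of 8 genes higher in Hif1a+/- and 4 of 8 in Hif1aKI/+ than in Hif1a+/+ tumours. Its core proteins lay on the lower side. Uqcrc2 read 14.24, 14.61, 14.34, 14.28 and 14.39 in Hif1a+/+, 14.07, 14.09, 14.31, 14.21 and 14.14 in Hif1a+/-, and 14.27, 14.09, 13.98 and 14.22 in Hif1aKI/+ tumours. In each altered genotype all tumours but 1 lay below the Hif1a+/+ range. The differences were -0.209 (SE 0.0801; limma adjusted p = 0.554) and -0.231 (SE 0.085; limma adjusted p = 0.984), and both probe sets of the gene gave this sign. Uqcrc1 differed by -0.327 (SE 0.165) in Hif1a+/- against Hif1a+/+. Uqcrh, the hinge protein, had the smallest residual SD of the 8 (0.0567). Its mean was 13.99 ± 0.05 (SD, n = 5) in Hif1a+/+ tumours, against 14.11 ± 0.08 (SD, n = 5) where 1 Hif1a allele was lost, a difference of 0.12 (SE 0.0415; limma adjusted p = 0.525). Uqcr11 was the widest, from 10.91 in Hif1aKI/+ tumour 4 to 12.77 in Hif1a+/- tumour 2. Cycs, the mobile carrier that also triggers apoptosis when released, ranged from 11.38 in Hif1a+/- tumour 5 to 13.24 in Hif1a+/+ tumour 1. Its means of 12.60 ± 0.42, 12.51 ± 0.66 and 12.44 ± 0.44 (SD, n = 5, 5 and 4) differed by less than this spread. In Hif1a+/- against Hif1a+/+ its other probe sets gave -0.463 and -0.33, beside -0.0919 for the one used. In Hif1aKI/+ against Hif1a+/+ they gave -0.215 and -0.262, beside -0.162. Between the altered genotypes they gave -0.248 and -0.0682, the opposite sign to the 0.0701 of the one used.

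Several nuclear subunits of complex IV come in tissue-specific pairs, and the isoforms found in most tissues were strongly detected in every tumour. Cox4i1, the regulatory subunit expected in normoxic cells, read 13.39, 13.20, 13.16, 13.18 and 13.43 in Hif1a+/+, 13.42, 13.51, 13.19, 13.69 and 13.40 in Hif1a+/-, and 13.31, 13.37, 13.33 and 13.23 in Hif1aKI/+ tumours. The groups overlapped. Its means were 13.27 ± 0.13 (SD, n = 5), 13.44 ± 0.18 (SD, n = 5) and 13.31 ± 0.06 (SD, n = 4), and the two-sided exact permutation p was 0.127 for Hif1a+/- and 0.571 for Hif1aKI/+ against Hif1a+/+, and 0.222 between the altered genotypes.

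In transcript levels, read from 1 probe set for each gene, no tumour showed the exchange of Cox4i1 for Cox4i2. Protein was not measured. Cox4i2, the isoform of lung and of hypoxic cells, read 3.05, 2.06, 4.87, 2.07 and 2.83 in Hif1a+/+, 1.99, 1.99, 2.31, 2.001 and 2.07 in Hif1a+/-, and 2.08, 2.08, 2.08 and 3.14 in Hif1aKI/+ tumours. Of the 14, 1 (Hif1a+/+ tumour 3) reached the boundary of 4.83, and the other 13 lay at 3.14 or lower. The exact permutation p was 0.0635 for Hif1a+/- and 0.405 for Hif1aKI/+ against Hif1a+/+, and 0.349 between the altered genotypes, or 0.191, 0.509 and 0.509 after Benjamini-Hochberg adjustment over 9 tests. Fold changes between levels this near background have no firm size. In Hif1a+/+ tumour 3 Cox4i1 read 13.16, the lowest of the 14. That tumour also had the highest mean of 6 adipocyte markers, 9.54, beside 5.31 to 8.60 in the other 13 tumours. Of these markers, Adipoq and Retn have means below the boundary. The next highest adipocyte means, 8.60 and 8.27 in Hif1a+/+ tumours 5 and 2, went with Cox4i2 levels of 2.83 and 2.06. The pericyte and smooth muscle list averaged 6.07 in Hif1a+/+ tumour 3, the lowest of the Hif1a+/+ tumours. The part of adipose tissue or other cells in the Cox4i2 level of tumour 3 was not tested.

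Of the other tissue isoforms, Cox6a2 and Cox6b2 were expressed well above background in some or all tumours. Cox6a2, the heart and skeletal muscle form of subunit VIa, read 10.65, 5.64, 3.87, 11.93 and 6.69 in Hif1a+/+, 10.79, 9.86, 5.23, 3.87 and 12.78 in Hif1a+/-, and 6.50, 5.58, 3.86 and 11.58 in Hif1aKI/+ tumours. The values fell apart around an empty stretch from 6.69 to 9.86, with 6 tumours above it (2 Hif1a+/+, 3 Hif1a+/- and 1 Hif1aKI/+) and 8 below. The range within each genotype, up to 8.91 log2 units, exceeded any gap between genotypes. The residual SD of 3.53 within genotypes ranked 12th from the top among 7173 genes above the boundary. Of 7 striated muscle markers, 6 (Atp2a1, Tnni2, Tnnt3, Myh7, Mb and Casq1) had means near 2, below the boundary, and Mylpf lay at 7.30. The list averaged from 2.63, in the tumour with the most Cox6a2 (Hif1a+/- tumour 5), to 2.96. With most of the list near background, differences in its mean have no firm size. The part of muscle tissue in the Cox6a2 levels was not tested. The ubiquitous partner Cox6a1 averaged 13.92 ± 0.18, 13.78 ± 0.11 and 13.80 ± 0.09 (SD, n = 5, 5 and 4).

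Cox6b2, known as the testis form of subunit VIb, was above the boundary in all 14 tumours. It read 9.57, 11.11, 9.86, 8.29 and 10.75 in Hif1a+/+, 9.03, 9.48, 8.87, 11.68 and 9.53 in Hif1a+/-, and 6.03, 11.57, 10.93 and 6.87 in Hif1aKI/+ tumours. Hif1aKI/+ tumours 1 and 5 were the lowest of all and Hif1aKI/+ tumour 3 was the second highest, so the 4 Hif1aKI/+ tumours spanned most of the range. Cox6b1, the form found in most tissues, averaged 14.39 ± 0.16, 14.31 ± 0.16 and 14.35 ± 0.13 (SD, n = 5, 5 and 4). Cox7a1, the muscle form of subunit VIIa, crossed the boundary in 5 tumours and was highest at 6.90 in Hif1a+/+ tumour 3 and 6.78 in Hif1aKI/+ tumour 4. Its difference of 0.949 between Hif1aKI/+ and Hif1a+/+ carried an SE of 0.699. Cox8b stayed between 2.07 and 2.14 in every tumour, whereas Cox8a averaged 11.42 ± 0.18, 11.67 ± 0.49 and 11.53 ± 0.54, and Cox7a2 14.71 ± 0.06, 14.73 ± 0.09 and 14.76 ± 0.05 (SD, n = 5, 5 and 4).

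**Figure D4:**
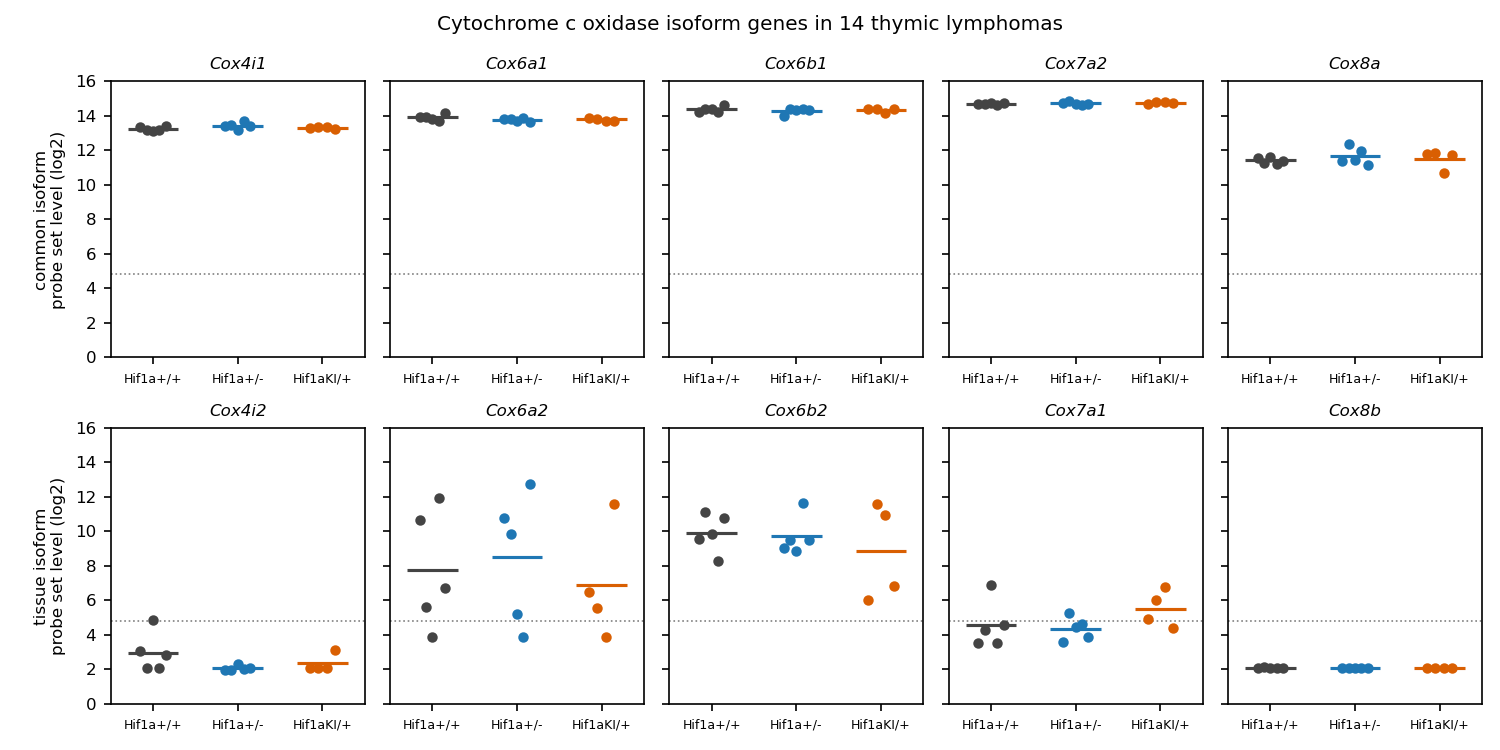
Probe set level (log2) of 5 complex IV isoform pairs in each tumour by Hif1a genotype, common isoforms above and tissue isoforms below; points are tumours, bars group means and the dotted line the low-mode boundary of 4.83. Common isoforms lie within narrow bands, Cox4i2 and Cox8b lie near background, and Cox6a2 spans 3.87 to 12.78 with every genotype at both ends.

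The bases upstream of the Cox6b pair are shown because both genes were detected in every tumour, with residual SDs of 0.154 for Cox6b1 and 1.75 for Cox6b2. The RefSeq promoter table (GRCm38.p6) gives Cox6b1 at chr7:30626115-30626364 and Cox6b2 at chr7:4753095-4753344, both on the minus strand, for the 250 bases before the start. Of 3 motifs searched on either strand (the ETS core CCGGAAG, the HIF core ACGTG and an NRF1 palindrome made of GCGCA followed directly by TGCGC), the ETS core alone was found here, and capitals mark it.
Cox6b1: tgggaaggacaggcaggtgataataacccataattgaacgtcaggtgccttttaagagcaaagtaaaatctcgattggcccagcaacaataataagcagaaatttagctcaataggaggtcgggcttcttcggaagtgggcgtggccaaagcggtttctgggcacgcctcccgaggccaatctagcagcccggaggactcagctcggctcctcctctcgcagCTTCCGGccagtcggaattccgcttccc
Cox6b2: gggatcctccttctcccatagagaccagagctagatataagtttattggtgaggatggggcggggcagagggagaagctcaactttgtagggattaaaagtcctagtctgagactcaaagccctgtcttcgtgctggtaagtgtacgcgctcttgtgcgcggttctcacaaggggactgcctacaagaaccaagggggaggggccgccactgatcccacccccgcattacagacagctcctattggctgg
The Cox6b1 window holds 1 match and the Cox6b2 window none, and a match describes the letters and is not evidence of binding. Other spellings of these motifs were not searched.

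Of the remaining complex IV subunits, Cox5a, the matrix-side subunit Va, lay lower in both altered genotypes. It read 13.54, 13.49, 13.52, 13.34 and 13.81 in Hif1a+/+, 13.46, 13.33, 13.39, 13.26 and 13 in Hif1a+/-, and 13.10, 13.46, 12.92 and 13.52 in Hif1aKI/+ tumours. The groups overlapped, and the differences of -0.253 (SE 0.131) and -0.289 (SE 0.139) had limma adjusted p of 0.655 and 0.984. All 3 probe sets of Cox5a gave this sign against Hif1a+/+. Ndufa4, first assigned to complex I and now placed in complex IV, averaged 12.64 ± 0.17, 12.75 ± 0.31 and 12.66 ± 0.15 (SD, n = 5, 5 and 4).

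ATP synthase held the gene with the lowest limma adjusted p of the set. Its membrane ring is built of subunit c, encoded by Atp5g1, Atp5g2 and Atp5g3, whose mature proteins are identical. Atp5g2 read 13.25, 13.31, 12.96, 13.40 and 13.54 in Hif1a+/+, 13.59, 13.81, 13.78, 13.66 and 13.60 in Hif1a+/-, and 13.70, 13.62, 13.37 and 13.71 in Hif1aKI/+ tumours. Every Hif1a+/- tumour lay above every Hif1a+/+ tumour, the 1 gene of the set so placed (0.731% of all genes), and 3 of 4 Hif1aKI/+ tumours did too. The difference from Hif1a+/+ was 0.39 (SE 0.104; limma adjusted p = 0.46), or 1.31-fold, in Hif1a+/- and 0.31 (SE 0.111; limma adjusted p = 0.984) in Hif1aKI/+ tumours. A second, much dimmer probe set gave 0.23 and 0.262.

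Atp5g3 lay on the other side. It read 14.43, 14.56, 14.55, 14.47 and 14.58 in Hif1a+/+, 14.47, 14.36, 14.33, 14.37 and 14.31 in Hif1a+/-, and 14.46, 14.30, 14.41 and 14.48 in Hif1aKI/+ tumours. All Hif1a+/- tumours but tumour 1 lay below the Hif1a+/+ range, a difference of -0.15 (SE 0.0475; limma adjusted p = 0.497), while in Hif1aKI/+ tumours the difference was -0.106 (SE 0.0504). Atp5g1, added after its values were seen to complete the trio, averaged 13.37 ± 0.16, 13.57 ± 0.40 and 13.54 ± 0.19 (SD, n = 5, 5 and 4), with overlap among all groups.

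The windows of 250 bases before the start of these 3 genes are shown because they encode 1 protein and lay on different sides. In RefSeq (GRCm38.p6) they lie at chr11:96075632-96075881 for Atp5g1, chr15:102671048-102671297 for Atp5g2 and chr2:73911327-73911576 for Atp5g3, all on the minus strand. Capitals mark the HIF core ACGTG and the NRF1 palindrome, as spelled out above, on either strand.
Atp5g1: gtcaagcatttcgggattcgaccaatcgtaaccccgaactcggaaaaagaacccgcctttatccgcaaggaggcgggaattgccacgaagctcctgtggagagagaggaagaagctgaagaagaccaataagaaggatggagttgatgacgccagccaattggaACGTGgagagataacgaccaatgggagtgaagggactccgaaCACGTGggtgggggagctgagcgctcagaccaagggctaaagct
Atp5g2: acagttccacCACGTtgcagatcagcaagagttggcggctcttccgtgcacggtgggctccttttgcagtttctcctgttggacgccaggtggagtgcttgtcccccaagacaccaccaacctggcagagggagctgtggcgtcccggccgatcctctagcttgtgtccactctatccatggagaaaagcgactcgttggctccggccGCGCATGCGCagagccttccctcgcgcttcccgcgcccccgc
Atp5g3: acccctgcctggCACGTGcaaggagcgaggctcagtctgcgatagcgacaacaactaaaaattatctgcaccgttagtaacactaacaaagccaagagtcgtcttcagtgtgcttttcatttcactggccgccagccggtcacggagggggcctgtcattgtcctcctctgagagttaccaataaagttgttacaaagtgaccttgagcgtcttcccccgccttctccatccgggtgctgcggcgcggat
All 3 windows hold the HIF core, and Atp5g2 alone of the 3 holds the NRF1 palindrome, near its start. Over the 76 promoters found for 71 of the 84 genes, 23.7% held the HIF core, 5.26% the NRF1 palindrome and 17.1% the ETS core, beside 16.6%, 0.782% and 6.91% of all 32851 promoters in the table. Palindromic matches overlap on the opposite strand. The other genes with the NRF1 palindrome were Atp5k, Cox6a1 and Ndufaf4. These shares describe letters only, and NRF1 and ETS-family sites are known in promoters of this gene class.

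Across the 17 ATP synthase genes, 8 lay higher in Hif1a+/- than in Hif1a+/+ tumours (median -0.00244) and 6 in Hif1aKI/+ than in Hif1a+/+ (median -0.0803). In Hif1a+/- against Hif1aKI/+, 13 lay higher (median 0.0775), with 0 passing limma's adjusted threshold and 0 at an unadjusted p under 0.05. Atp5h, a peripheral stalk subunit, differed by 0.16 (SE 0.0657) between Hif1a+/- and Hif1a+/+, and Atp5a1, the catalytic-head alpha subunit, by -0.065 (SE 0.0462) between Hif1aKI/+ and Hif1a+/+. The mean of the 17 was lowest in Hif1aKI/+ tumour 4, at 13.64, where none of them exceeded its own mean over the tumours. That tumour also had the lowest mean of all 84 genes, at 12.12. Over the 80 genes above the boundary its median deviation was -0.203, with 12 genes above their own mean, so the low levels were not particular to ATP synthase.

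The levels of most respiratory chain genes varied little between tumours of a genotype, as far as their high level goes. The residual SD within genotypes had a median of 0.234 over the 80 genes above the boundary and 0.459 over all 7173 such genes. Spread falls as level rises on these arrays, and within bands of like mean level 41 of 79 members lay below the median SD of their band. Among genes with means from 13 to 14 the median SD was 0.208 for 29 members and 0.2 for 435 genes. Cox6a2, Cox6b2 (SD 1.75), Ndufaf3 (0.783), Ndufaf7 (0.61), Uqcr11 (0.526) and Cycs (0.521) were the 6 with the largest SD.

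**Figure D5:**
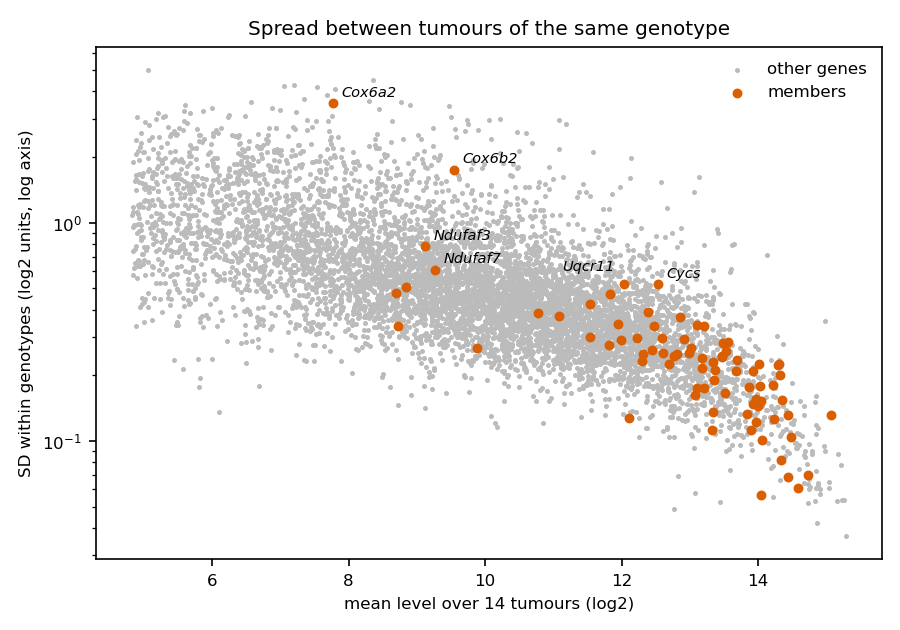
SD within genotypes (log2 units, log axis) against mean level over 14 tumours (log2) for the 7173 genes above the low-mode boundary, the 80 respiratory chain genes in orange. The orange points follow the fall of SD with level, and Cox6a2 (SD 3.53) and Cox6b2 (SD 1.75) stand above the rest of the set.

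Within genotypes the members tended to vary together. Across the 14 tumours, after removing genotype means, the median correlation of member pairs was 0.33, and it was 0.503 among pairs of complex I accessory subunits, 0.335 within ATP synthase and -0.0563 among the Ndufaf genes, beside 0.00333 over pairs of the 7173 genes above the boundary. These are descriptions over 14 arrays that share array-wide effects, and genes are not independent of each other.

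Other mitochondrial gene groups were read beside the chain. Over all genes, 46.2% lay higher and 53.8% lower in Hif1a+/- against Hif1a+/+, and the shares with an unadjusted p under 0.05 were 4.3% and 3.64%. In Hif1aKI/+ against Hif1a+/+ these shares were 47.7% and 52.3%, with 2.72% and 1.63% at that p. In Hif1a+/- against Hif1aKI/+ they were 46.9% and 53.1%, with 1.41% and 1.65% at that p. The TCA cycle and pyruvate dehydrogenase genes, which feed it with NADH and succinate, lay mostly lower, 14 of 15 in Hif1a+/- (median -0.201, 2 at an unadjusted p under 0.05) and 12 of 15 in Hif1aKI/+ (median -0.16, 3 at an unadjusted p under 0.05) against Hif1a+/+. In Hif1a+/- against Hif1aKI/+, 11 of 15 lay lower (median -0.0657). With limma, 0 passed the adjusted threshold in any comparison. Mdh2, mitochondrial malate dehydrogenase, read 14.17, 14.04, 13.995, 14.05 and 14.09 in Hif1a+/+ and 13.90, 13.81, 13.86, 13.78 and 13.77 in Hif1a+/- tumours, with no overlap. Its difference was -0.246 (SE 0.0741; limma adjusted p = 0.474) in Hif1a+/- and -0.239 (SE 0.0786; limma adjusted p = 0.984) in Hif1aKI/+ tumours. Dlat, the E2 subunit of pyruvate dehydrogenase, differed by -0.613 (SE 0.186; limma adjusted p = 0.474) in Hif1a+/- against Hif1a+/+, again with no overlap, where 0.741% of all genes lay lower without overlap, and by -0.249 against Hif1aKI/+. Pdha1, its E1 alpha subunit, differed by -0.552 in Hif1aKI/+ against Hif1a+/+ and by 0.337 in Hif1a+/- against Hif1aKI/+. Fibroblast markers lay lower than in Hif1a+/+ for 11 of 11 genes in Hif1a+/- (median -1.06) and 8 of 11 in Hif1aKI/+ tumours (median -0.659). Macrophage markers did for 10 of 12 (median -0.815) and 8 of 12 (median -0.528). Adipocyte markers, 2 of them with means below the boundary, did for 6 of 6 in each (medians -1.44 and -1.31). The adipocyte list averaged 5.55 to 9.54 in Hif1a+/+, 5.31 to 6.66 in Hif1a+/- and 5.67 to 6.76 in Hif1aKI/+ tumours. The part of these cells was not tested.

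The mitochondrial ribosome genes, whose products translate the subunits encoded in mitochondrial DNA, lay higher in Hif1a+/- tumours for 51 of 74 against Hif1a+/+ (46.2% of all genes), with a median of 0.126 and 8 at an unadjusted p under 0.05 (4.3% of all genes). Against Hif1aKI/+ 54 of 74 lay higher (46.9% of all genes), with a median of 0.133 and 1 at that p (1.41% of all genes). Against Hif1a+/+, 41 lay higher in Hif1aKI/+ (47.7% of all genes), with a median of 0.0285. In either direction 2 had an unadjusted p under 0.05 (4.35% of all genes). None passed limma's adjusted threshold. Mrpl45 differed by 0.804 (SE 0.231; limma adjusted p = 0.474) in Hif1a+/- and 0.593 in Hif1aKI/+ against Hif1a+/+, and Mrpl58 by 0.672 in Hif1a+/- against Hif1a+/+ and 0.6 against Hif1aKI/+. Mrps34 differed by -0.461 in Hif1aKI/+ against Hif1a+/+, and Mrpl33 by 0.155 between the altered genotypes. In median deviation Hif1a+/- tumour 2 was highest (0.429) and Hif1a+/- tumour 5 lowest (-0.303), so both ends lay in 1 genotype. Of 45 cytoplasmic ribosome genes 30 lay higher in Hif1a+/- and 34 in Hif1aKI/+ than in Hif1a+/+ tumours, with medians of 0.0181 and 0.0243. Over all genes 46.2% and 47.7% lay higher.

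Regulators of mitochondrial biogenesis split 6 higher and 10 lower in Hif1a+/- and 8 and 8 in Hif1aKI/+ against Hif1a+/+. In Hif1a+/- against Hif1aKI/+ they split 5 and 11. With limma, 0 of 16 passed the adjusted threshold. At an unadjusted p under 0.05 there were 2 (12.5%), 2 (12.5%) and 0, beside 7.94%, 4.35% and 3.06% of all genes. Ppargc1b, a coactivator of the program, differed by -1.14 (SE 0.487) and Tefm, a mitochondrial transcription elongation factor, by 0.694 (SE 0.297) in Hif1a+/- against Hif1a+/+. In Hif1aKI/+ against Hif1a+/+, Gabpb1, a subunit of an ETS-family activator of chain genes, differed by 0.447. Polg2, the accessory subunit of the mitochondrial DNA polymerase, differed by 0.516 there without overlap of the groups. In that comparison 0.878% of all genes lay higher without overlap. Between Hif1a+/- and Hif1aKI/+, Gabpb1 and Polg2 differed by -0.351 and -0.424, and for Gabpb1 another probe set reversed that sign (0.169).

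Genes tied to the HIF-driven change in mitochondria (Pdk1, Ldha, Bnip3, Lonp1 and others) lay lower in 9 of 11 cases in Hif1a+/- and 6 of 11 in Hif1aKI/+ against Hif1a+/+. In Hif1a+/- against Hif1aKI/+, 8 of 11 lay lower. Of all genes, 53.8%, 52.3% and 53.1% lay lower in the same order. In each comparison limma called 0 of the 11, and 0 had an unadjusted p under 0.05. Lonp1, the protease that removes Cox4i1 in the known exchange, differed by -0.234 (SE 0.163) in Hif1a+/- against Hif1a+/+ and -0.354 against Hif1aKI/+, and Mxi1 by 0.448 (SE 0.245) against Hif1a+/+. Pdk3 differed by -0.513 and Iscu by -0.277 in Hif1aKI/+ against Hif1a+/+, and Iscu by 0.349 between the altered genotypes. Of 20 import and membrane genes, 14 lay lower in Hif1a+/- and 16 in Hif1aKI/+ against Hif1a+/+, and 11 in Hif1a+/- against Hif1aKI/+. At an unadjusted p under 0.05 with limma there were 2 (10%), 0 and 0, beside 7.94%, 4.35% and 3.06% of all genes. After adjustment 0 were called. Mfn1, an outer membrane fusion protein, differed by -0.418 and -0.249 against Hif1a+/+, and Tomm70a, an import receptor, by -0.441 in Hif1a+/- against Hif1a+/+ and -0.351 against Hif1aKI/+. The phosphate carrier Slc25a3 differed by -0.192 in Hif1aKI/+ against Hif1a+/+, and the adenine nucleotide carrier Slc25a4 by 0.292 in Hif1a+/- against Hif1aKI/+.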

How the data were processed

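Total RNA (100 ng) from 14 thymic lymphomas was amplified, labelled with biotin and hybridised to 1 Affymetrix array each, per the labels' protocols. The authors deposited log2 probe set values, made with GCRMA and Partek per the submitters' processing notes, with versions and build not given in the sources used here. GCRMA corrects for background by probe sequence, normalizes the arrays and summarises probes, so a global shift in signal would be removed and low values compress towards background. Probe sets (18264) were named through the platform annotation: 16602 name 1 gene, 603 several and 1059 none. Of the 84 probe sets used, 8 end in x_at and 12 in s_at, which can detect related transcripts, so such genes are less certain.

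All 10254 genes entered 1 fit of the 3 genotype means with limma 3.58.1 in R 4.3.3 (eBayes, no filter on level, Benjamini-Hochberg over all genes, threshold 0.05, two-sided) and was tested on simulated data. Group means carry the SD between tumours, and differences the SE of the fit. Labels call the tumours biological replicates. The limma p-values weigh a difference of means against the spread between these tumours, moderated over all genes. The number of arrays limits the precision. Same-numbered tumours of different genotypes had residual correlations of -0.115 to 0.141 over 13 pairs, so the numbers were not treated as pairs. Single values of Hif1a, Cox4i1 and Cox4i2 were tested with exact permutation tests over 252 or 126 assignments.

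Named genes were the members past the threshold, then up to 8 per direction and comparison by smallest unadjusted p, the 6 members above the boundary with the largest residual SD, the complex IV isoform pairs, the complex II genes and Cycs, and in each other list the 2 genes of smallest p per comparison. Members and lists were chosen with earlier results of these data known. The alternatives were quantile normalization, median centring, a filter on level, the mean or the most variable probe set of a gene, trended robust moderation, array weights, only the groups compared, a replicate block and leaving out each tumour. Promoter sequences come from RefSeq (GRCm38.p6), and promoters of 13 members were not analysed here.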

Additional observations from a re-analysis of the deposited data

Results flagged for a closer look

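Within a genotype, 1 tumour stood far from the others of its group for 14 of 210 groups examined (70 named genes in 3 genotypes). Chance marks about 1 in 20 such groups, here 10.5. Hif1aKI/+ tumour 4 was low for Cox6b1 (14.15, nearest 14.41), Cox8a (10.72, nearest 11.76) and Uqcr11 (10.91, nearest 12.01), and high for Tefm (9.888, nearest 8.629) and Mrpl45 (8.773, nearest 8.268). Hif1a+/- tumour 1 was low for Cox6b1 (14.03, nearest 14.33) and high for Ndufb11 (14.43, nearest 14.4, a gap within 0.05). Hif1a+/- tumour 5 was low for Cycs, at 11.38 with the nearest tumour at 12.55. Hif1a+/- tumour 4 was high for Cox6b2, at 11.68 with the nearest at 9.53. Within its own genotype, Cox4i2 was high in Hif1aKI/+ tumour 5 (3.141) and in Hif1a+/- tumour 3 (2.314), and Cox8b in Hif1aKI/+ tumour 5 (2.111). These values all lay below the low-mode boundary of 4.83. Over all tumours both genes were highest in Hif1a+/+, Cox4i2 in tumour 3 (4.871) and Cox8b in tumour 2 (2.136). Mxi1 was high in Hif1aKI/+ tumour 1 (11.73) and Sco2 in Hif1aKI/+ tumour 3 (9.712).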

How the results depend on the processing

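Under 23 alternative settings limma called 0 of the respiratory chain genes in each comparison and in the F test. The number at an unadjusted p under 0.05 was less stable. With only genes above the low-mode boundary it was 5, 1 and 2 (in Hif1a+/- against Hif1a+/+, Hif1aKI/+ against Hif1a+/+ and Hif1a+/- against Hif1aKI/+), in place of 14, 3 and 4. With probe sets averaged per gene it was 1, and with array weights 5, in Hif1aKI/+ against Hif1a+/+. Leaving out 1 tumour gave 8 to 15, 2 to 4 and 1 to 7. In Hif1a+/- against Hif1aKI/+ it was 2 without Hif1a+/- tumour 1 or Hif1aKI/+ tumour 1, 7 without Hif1a+/- tumour 3 and 1 without Hif1aKI/+ tumour 4. The accessory subunits lying higher numbered 18 to 24, 12 to 20 and 13 to 23 when 1 tumour was left out, and the median differences spanned -0.0142 to 0.0534, -0.0589 to 0.042 and -0.027 to 0.0928, so each median's sign depended on the tumours included. Of 2111 values for 92 single-gene differences, 2 changed sign, Hif1a in Hif1a+/- against Hif1a+/+ with its probe sets averaged (0.0119) and Gabpb1 in Hif1a+/- against Hif1aKI/+ with its most variable probe set (0.169); the cause was not tested, and no value crossed the threshold. For isoform, complex II and Cycs genes given as levels, 64 of 847 values changed sign. With the replicate number as a block, 11, 2 and 3 genes had an unadjusted p under 0.05, and 0 were called; the numbers do not pair the tumours, and the block changed no call. Signal over background limits Cox4i2, Cox8b, Ndufb1 and Cox7a1, whose differences have uncertain size.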
